A study of Drosophila melanogaster with 18 samples.

Results

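Expression in whole bodies of adult male *Drosophila melanogaster* was compared between populations that carry the number 1, 2 or 3. All populations came from LHm, an outbred laboratory stock. The labels give 9 populations, 3 in each of 3 treatments. All 18 arrays of the series entered the comparison, 6 for each number with 2 from each of Control, CDX and MLX. Control males inherited the X from their mother. CDX males were sons of a Control father and a DX female (stock C(1)DX, y, f), in which both X chromosomes are fused into one, so that they received the father's X for a single generation and a Y from the mother. MLX males came from populations in which the X had passed from father to son for 50 generations, apart from males brought back each generation from recombination boxes, in which females carry the X as well. Like CDX males, MLX males had DX mothers by the paper and received the Y from the mother. The Y of CDX males came, by the paper, from the MLX populations. The CDX groups were made by a cross for a single generation and were not kept as separate lines. The adults were 4 days old. The labels and the methods differ on whether a single male or a pool of males made up a sample. By the methods the MLX and Control populations were started at the same time, and their relatedness should not differ within and between treatments. That statement does not cover the CDX groups, whose fathers were Control males. Whether populations of the same number shared a day or a handling batch is stated neither in the labels nor in the methods, and neither names the Control population from which the father of a CDX male came, so the number is described here only as a label that each treatment carries.

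Populations kept apart drift, since a finite number of parents hands on alleles by chance, and the expression of single genes can then differ between populations that share a rearing protocol. Immune effectors are secreted mainly by the fat body, an organ that stores and exports much as the liver does. Haemocytes, the blood cells of the fly, take up microbes, carry the enzymes of melanization and make only part of the basement membrane. In whole bodies fewer cells of a type and less RNA per cell cannot be told apart.

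Expression was deposited on the log2 scale after RMA, with values from 2.64 to 15.33, so a difference of 1 is a doubling. Tests covered 18769 probe sets, without 183 that serve Affymetrix as controls. Treatment was a fixed block and the 9 populations a random block in limma, in which the estimated correlation of the 2 arrays of a population was 0.141. A probe set was called at an adjusted p under 0.05 (Benjamini-Hochberg over the 18769). The number that lies apart is the one with the highest or lowest mean, whichever is farther from the middle mean. Its difference from the mean of the others is a description and was not tested itself. Unless another test or comparison is named, an adjusted p is that of the F test over the 3 numbers in limma. Mst84Da of the testis and SP of the accessory gland had high signal on every array (13.23 to 13.45 and 13.79 to 14.12). This did not hold for every testis marker, as bam was low at 4.73 to 5.40. Genes of the ovary lay below Mst84Da and SP and were uneven, with the yolk protein Yp1 between 4.82 and 9.19. No sequences were read for this comparison, and the number of arrays limits its precision.

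The population number separated the arrays for 53 of the 18769 probe sets (0.282%). These comprised 49 probe sets with a single gene name, which stood for 43 genes, 1 that matched several genes and 3 that matched none. CG4269 had the smallest p. Its mean log2 expression was 10.31 ± 0.35 (SD, n = 6 arrays) in population 1, 9.04 ± 0.83 in population 2 and 7.39 ± 0.49 in population 3, so that population 1 stood 7.57-fold above population 3 (difference of 3 minus 1 -2.92, standard error 0.23, adjusted p = 2.15e-05 from the F test in limma). Ance-3, a member of the angiotensin converting enzyme family, Phk-3, a small secreted protein of the pherokine group, and TotC, a Turandot peptide secreted under stress and infection, were highest in population 1, whereas CG30427, a fatty acyl-CoA reductase, CG5326, an elongase of long fatty acids, and CG18301, a lipase, were lowest there. The maltase Mal-A6 was highest in population 2.

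Without adjustment 1556 probe sets (8.29%) had a p under 0.05 in the F test in limma, where chance would give 938, and 471 (2.51%) had a p under 0.01. All 53 called probe sets differed with the same sign in Control, CDX and MLX, a property that 43.7% of all probe sets tested had. For 36 of the 53, the 6 arrays of the number apart did not overlap the other 12 once each treatment had been centred, against 0.565% of all probe sets. The call itself favours both properties, so neither count is a separate result. With the 2 arrays of each population averaged, so that 9 values entered the test, 6 probe sets were called, 4 of them among the 53. Leaving out Control population 1 gave 11 calls, Control population 3 gave 21, MLX population 1 gave 27 and MLX population 3 gave 23. Leaving out CDX population 1 gave 662, where the paired arrays correlated at an estimated -0.07, and 359 with the arrays taken as independent. The 53 probe sets had the same direction in each of these fits. The fits share arrays and all 53 had the same sign in each treatment, so this is no separate support.

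Signal at the 3' end of the Affymetrix control transcripts exceeded that at the 5' end by more in population 3 than in the others on average. This difference is a measure of RNA quality. The mean log2 difference was 1.38 ± 0.11 (SD, n = 6 arrays) in population 1, with arrays from 1.19 to 1.52, 1.42 ± 0.06 in population 2, from 1.36 to 1.52, and 1.54 ± 0.08 in population 3, from 1.40 to 1.62. Population 3 exceeded population 1 by 0.18 in Control males, by 0.13 in CDX males and by 0.16 in MLX males. An exact permutation of the numbers within treatments, over all arrangements of the 9 population means, gave a two-sided p of 0.0556 (adjusted 0.222 over 4 measures), and 0.0278 was the smallest p it could give. Without the ribosomal RNA control transcripts the same permutation gave a p of 0.167 (adjusted 0.259). With the measure over all control transcripts as a covariate 9 probe sets were called, 8 of them among the 53. All 53 kept their direction. Those 8 were a probe set with no gene name and those of CG4269, Ance-3 (both of its called probe sets), Phk-3, Tig, CG3777 and hpRNA:CR32207. The mean of 20 yolk and eggshell genes was high in 6 arrays, 1 of population 1, 3 of population 2 and 2 of population 3. Without those 6 arrays 24 probe sets were called, 19 of them among the 53.

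**Figure D1:**
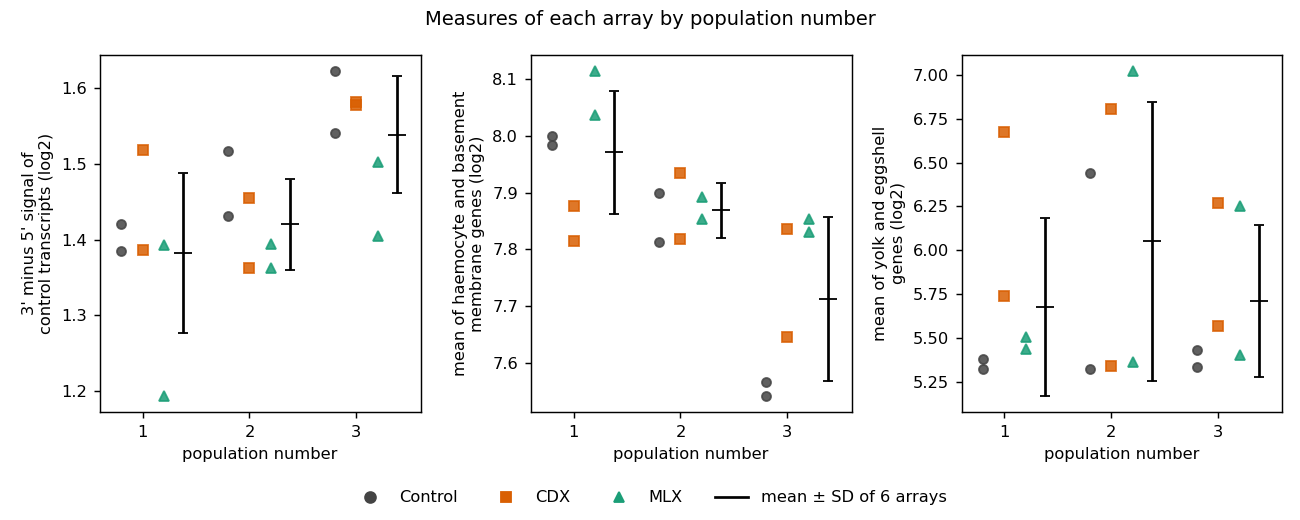
Each point is 1 array, placed by population number (x axis) and marked by treatment, with the mean ± SD of 6 arrays beside it; the y axes are the 3' minus 5' signal of the control transcripts, the mean of 26 haemocyte and basement membrane genes and the mean of 20 yolk and eggshell genes, all in log2 units. The 3' minus 5' signal averages 1.38, 1.42 and 1.54 for numbers 1, 2 and 3, and the haemocyte mean 7.97, 7.87 and 7.71.

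Populations 1 and 3 differed most often. Between them 74 probe sets were called (0.394%), 23 higher in population 3 (0.123%) and 51 lower (0.272%), with a median size of 0.58 in log2 units. Between populations 1 and 2 there were 7 calls (0.0373%), 2 higher in population 2 (0.0107%) and 5 lower (0.0266%), and between populations 2 and 3 there were 3 (0.016%), CG4269, Karl and hpRNA:CR32207, each lower in population 3. Of the 74 calls, 48 were among the 53 of the F test. Without adjustment, p was under 0.05 in limma for 1789 probe sets between populations 1 and 3, 1412 between 2 and 3 and 1032 between 1 and 2, where chance would give 938 in each. Among the 53, population 2 had the middle mean in 46, against 39.3% of all probe sets, and population 1 was the highest in 35 of these 46. The order of the 3 numbers was the same in each treatment, either 1-2-3 or 3-2-1, for 20 of the 53 and for 1.65% of all probe sets. These counts follow the extremes on which the F test calls. The 3' minus 5' signal ran in the same order, 1-2-3, in its overall means and in Control and MLX males, but in CDX males population 2 (1.41) was below population 1 (1.45).

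In population 1 apart and higher there were 18 probe sets, and 11 were apart and lower. Population 2 was apart in 2, both higher, and population 3 in 22, 3 higher and 19 lower.

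Among the genes highest in population 1 were Ance-3, Phk-3, TotC, Drs, vir-1, Bbd and Pvf2. Ance-3 had values from 9.25 to 10.02 (median 9.66) in population 1, from 8.24 to 9.23 (8.65) in population 2 and from 8.18 to 8.39 (8.27) in population 3. No array of population 1 overlapped another number, while populations 2 and 3 overlapped. Population 1 exceeded the mean of the others by 1.16 (adjusted p = 6.48e-05), that is by 1.06 in Control males, by 1.05 in CDX males and by 1.36 in MLX males. A further probe set of Ance-3 gave 6.75, 5.70 and 5.23 for populations 1, 2 and 3.

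Phk-3 ranged from 11.28 to 12.25 (median 12.03) in population 1, from 10.24 to 11.38 (10.98) in population 2 and from 10.25 to 10.93 (10.55) in population 3. A single CDX array of population 1, at the low end, lay within the range of population 2. The excess of population 1 was 1.21 (adjusted p = 0.00018), and it was nearly equal in the treatments, 1.14 for Control, 1.23 for CDX, 1.26 for MLX.

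TotC ranged from 9.62 to 11.14 (median 10.56) in population 1, from 8.16 to 10.27 (8.77) in population 2 and from 7.61 to 9.28 (8.47) in population 3. Population 1 exceeded the others by 1.70 (adjusted p = 0.0257), most in MLX (2.71), less in Control (1.37) and least in CDX males (1.02). The overlap between populations 1 and 2 came from 1 Control array. TotC is 1 of 14 measured genes of the Turandot and heat shock list, of which 7 were higher and 7 lower in population 3 than in population 1, with a median difference of -0.006 beside 0.015 over all 11981 genes. Fst, a gene induced by cold, was the other member of that list called between populations 1 and 3 (3 minus 1 -0.86, adjusted p = 0.0202 from limma).

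Drs, the antifungal peptide drosomycin, stood at 10.55 ± 0.25 (SD, n = 6 arrays) in population 1, 9.88 ± 0.38 in population 2 and 9.68 ± 0.28 in population 3 (excess of population 1 0.77, adjusted p = 0.0458). It was the single called gene among 31 of antimicrobial defence, 14 of which were higher and 17 lower in population 3 than in population 1, with a median difference of -0.005. The gene vir-1, induced by RNA viruses, had 10.66, 10.15 and 9.69 in populations 1, 2 and 3 (adjusted p = 0.00314), in the same order in every treatment. Bbd and Pvf2 were picked once their values were known. Bbd, the bombardier gene that acts with the Bomanin peptides of the Toll response, had 13.67, 13.39 and 13.29 (adjusted p = 0.00968), and each of its 6 arrays in population 1, from 13.52 to 13.83, lay above all arrays of populations 2 and 3, which reached 13.46. Pvf2, a growth factor of the PDGF and VEGF family, had a low signal of 5.28, 4.87 and 4.70 (adjusted p = 0.0449).

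**Figure D2:**
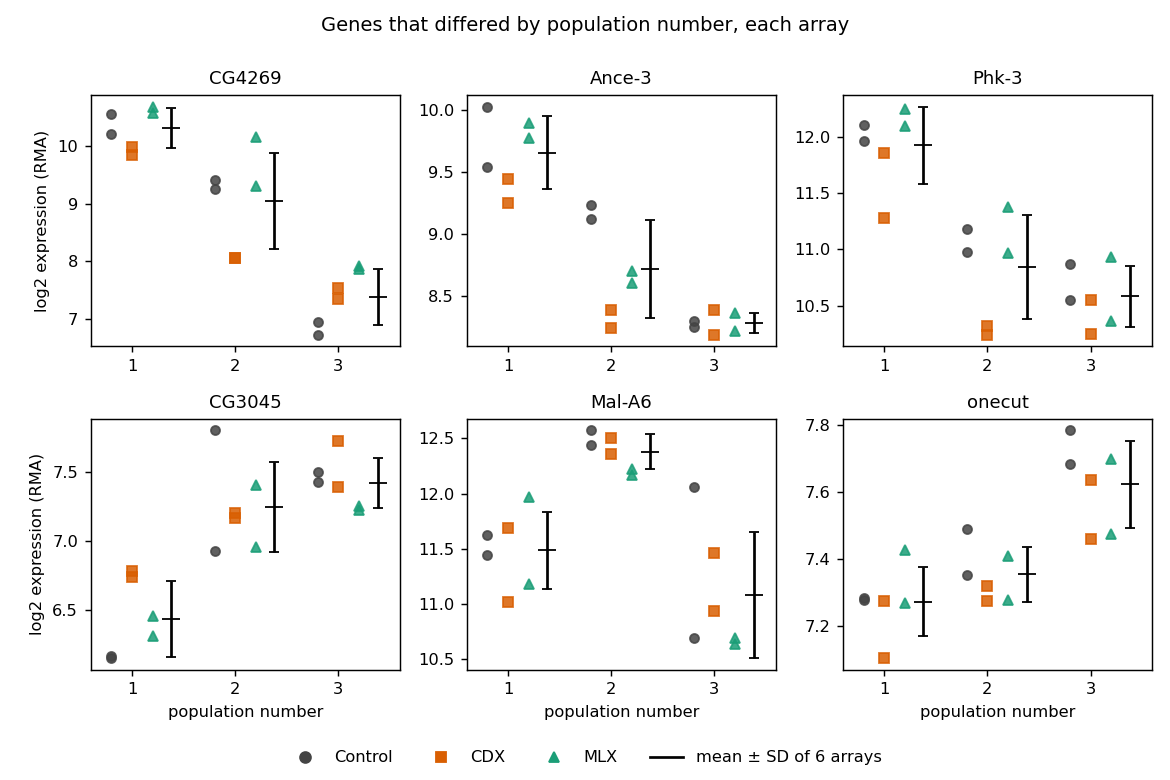
Log2 expression (y axis) on each array of the genes CG4269, Ance-3, Phk-3, CG3045, Mal-A6 and onecut by population number (x axis), marked by treatment, with the mean ± SD of 6 arrays beside the points. CG4269, Ance-3 and Phk-3 are highest in population 1, CG3045 lowest there, Mal-A6 is highest in population 2 at 12.17 to 12.57, and onecut in population 3 at 7.46 to 7.79.

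Of genes of haemocytes and the extracellular matrix, Ppn, NimC1, PPO1 and Hml were lowest in population 3 and Tig highest in population 1. The list of 26 measured genes used for their count was drawn up with values known, and so were its examples chosen. Of these 26, 23 were lower and 3 higher in population 3 than in population 1, with a median difference of -0.17, beside 0.015 over all genes, of which 5192 were lower and 6789 higher. By the F test 5 were called (Ppn, Tig, NimC1, PPO1 and Hml), where 43 of all 11981 genes were, and Col4a1 was called between populations 1 and 3. Hence the list gives no independent support to any of them. The mean of the 26 genes was 7.97 ± 0.11 (SD, n = 6 arrays) in population 1, 7.87 ± 0.05 in population 2 and 7.71 ± 0.14 in population 3. The difference of 3 minus 1 in that mean was -0.44 for Control, -0.10 for CDX and -0.23 for MLX. This mean was lowest and the 3' minus 5' signal was highest in population 3. The part of that signal in these genes was measured only through the covariate, with which Tig alone of the 5 was called.

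Ppn, which encodes papilin, a proteoglycan-like protein of basement membranes, ranged from 9.97 to 10.70 (median 10.29) in population 1, from 9.86 to 10.17 (9.99) in population 2 and from 9.14 to 9.92 (9.64) in population 3. All arrays of population 3 lay below those of population 1. Population 3 differed from the mean of the others by -0.61 (adjusted p = 0.00238), with -0.94 in Control males, -0.35 in CDX males and -0.54 in MLX males.

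Tig, or tiggrin, a matrix ligand of integrins, had the same order of means, but population 1 was the number apart. It was at 8.97 ± 0.25 in population 1 (8.59 to 9.21), whereas populations 2 and 3 were close to each other at 8.29 ± 0.23 (8.06 to 8.70) and 8.21 ± 0.07 (8.12 to 8.33), all SD with n = 6 arrays. The excess of population 1 was 0.72 (adjusted p = 0.00282) and similar in Control (0.79), CDX (0.64) and MLX males (0.72).

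NimC1, a phagocytosis receptor of plasmatocytes, the commonest haemocytes, ranged from 6.90 to 7.64 in population 1, from 6.94 to 7.36 in population 2 and from 6.18 to 7.04 in population 3 (population 3 minus the others -0.55, adjusted p = 0.017). PPO1, a prophenoloxidase made by crystal cells for melanization, was at 8.36 ± 0.43, 8.19 ± 0.13 and 7.51 ± 0.38 (SD, n = 6 arrays) in populations 1, 2 and 3. Population 3 differed from the others by -0.77 (adjusted p = 0.0197), most in Control (-1.08) and least in CDX males (-0.41). PPO2, its paralogue in crystal cells, had 8.45, 8.33 and 7.98 and was not called (adjusted p = 0.187). Hml, or hemolectin, which takes part in clotting, had 8.49, 8.32 and 7.86 (adjusted p = 0.0466). Col4a1, a collagen IV chain, had 10.01, 9.87 and 9.68 (3 minus 1 -0.33, adjusted p = 0.0181 in that comparison and 0.0534 in the F test, both from limma).

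**Figure D3:**
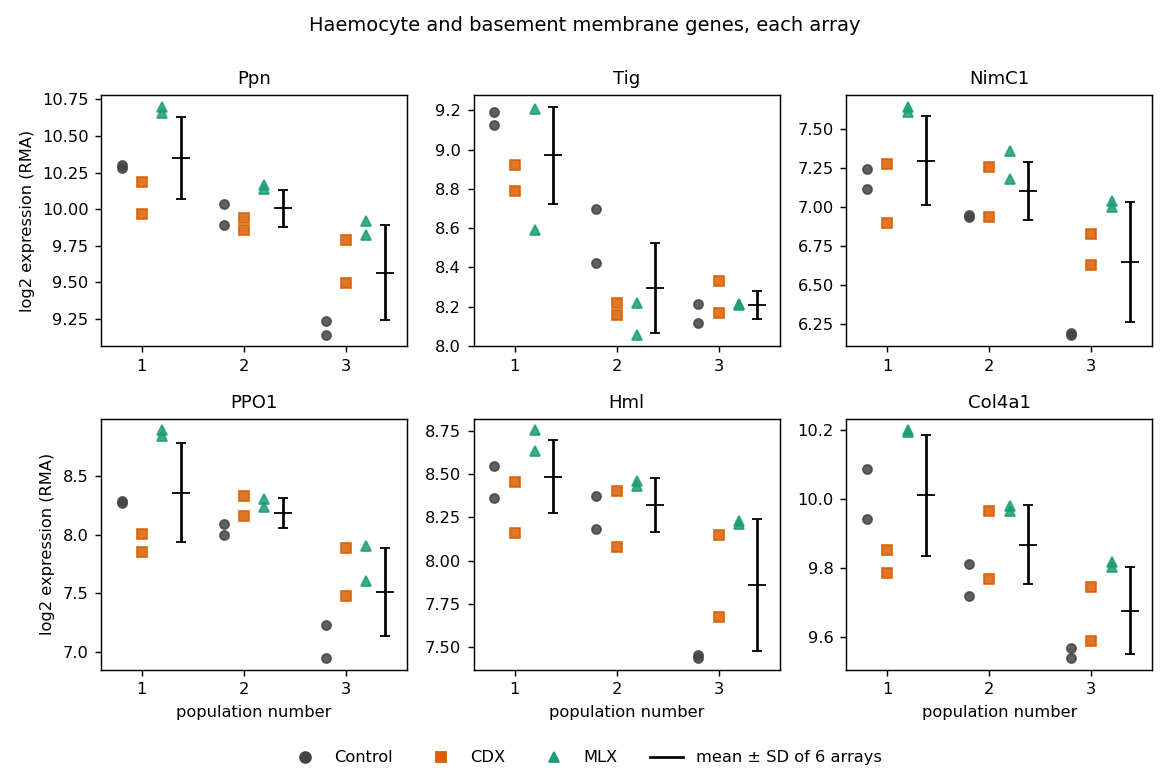
Log2 expression (y axis) on each array of Ppn, Tig, NimC1, PPO1, Hml and Col4a1 by population number (x axis), marked by treatment, with the mean ± SD of 6 arrays. The 2 Control arrays of population 3 are the lowest in all but Tig, where populations 2 and 3 lie together at 8.29 and 8.21.

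Genes of lipid metabolism appeared on both sides, and they were grouped by role after their values were seen. The reductase CG30427, the elongase CG5326 and the lipase CG18301 were lowest in population 1, with MLX population 1 far below the rest. A probe set of CG30427 read 7.44 and 7.60 on the 2 arrays of MLX population 1, 9.33 and 8.96 in Control population 1 and 10.18 and 10.22 in CDX population 1, while the 12 arrays of populations 2 and 3 lay between 10.25 and 11.02. Population 1 thus differed from the others by -3.02 in MLX, -1.47 in Control and -0.45 in CDX males (adjusted p = 0.0197 for the number, and 0.000326 for its interaction with treatment, from limma). Another probe set of CG30427 had the smaller p for the number, with 6.00, 6.51 and 6.85 in populations 1, 2 and 3 (adjusted p = 0.00125). Its interaction did not pass the threshold (adjusted p = 0.0634). A further probe set of CG30427, with a mean of 9.13, hardly differed. There population 1 was at -0.10 from the others, with no call (adjusted p = 0.755 from the F test in limma). CG5326 had means of 8.28, 9.21 and 9.33 in populations 1, 2 and 3 in 1 called probe set and 10.16, 11.16 and 11.46 in the other. A further probe set of CG5326, near the lowest signals with a mean of 3.58, differed by 0.06 in the opposite direction and was not called (adjusted p = 0.903). In the first, population 1 differed from the others by -0.98 for Control, -0.43 for CDX and -1.57 for MLX (adjusted p = 0.00323 for the number and 0.0253 for the interaction). For CG18301 the same differences were -0.99, -0.41 and -2.14 (adjusted p = 0.0199 for the number and 0.0116 for the interaction), and no array of population 1, from 8.33 to 10.37, lay above the median of population 2, 10.59.

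Seipin, Ldsdh1, GLaz, Karl and Elovl7 were picked with their values known. Seipin, which shapes lipid droplets, was lower in population 1 at 8.10 than in populations 2 and 3, both at 8.44 (adjusted p = 0.0488). Ldsdh1, a dehydrogenase found on lipid droplets, was lower in population 3, at 11.94 against 12.30 and 12.28 (adjusted p = 0.0476). The lipocalins GLaz and Karl, relatives of apolipoprotein D, also differed: GLaz was highest in population 1 at 9.70 against 9.22 and 9.10 (adjusted p = 0.0162), and Karl was lowest in population 3 at 5.78 against 6.35 and 6.29 (adjusted p = 0.000761). Elovl7, a further elongase, was higher in population 3 than in population 1 (0.29, adjusted p = 0.0253 in that comparison) and was not called in the F test (adjusted p = 0.0539).

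**Figure D4:**
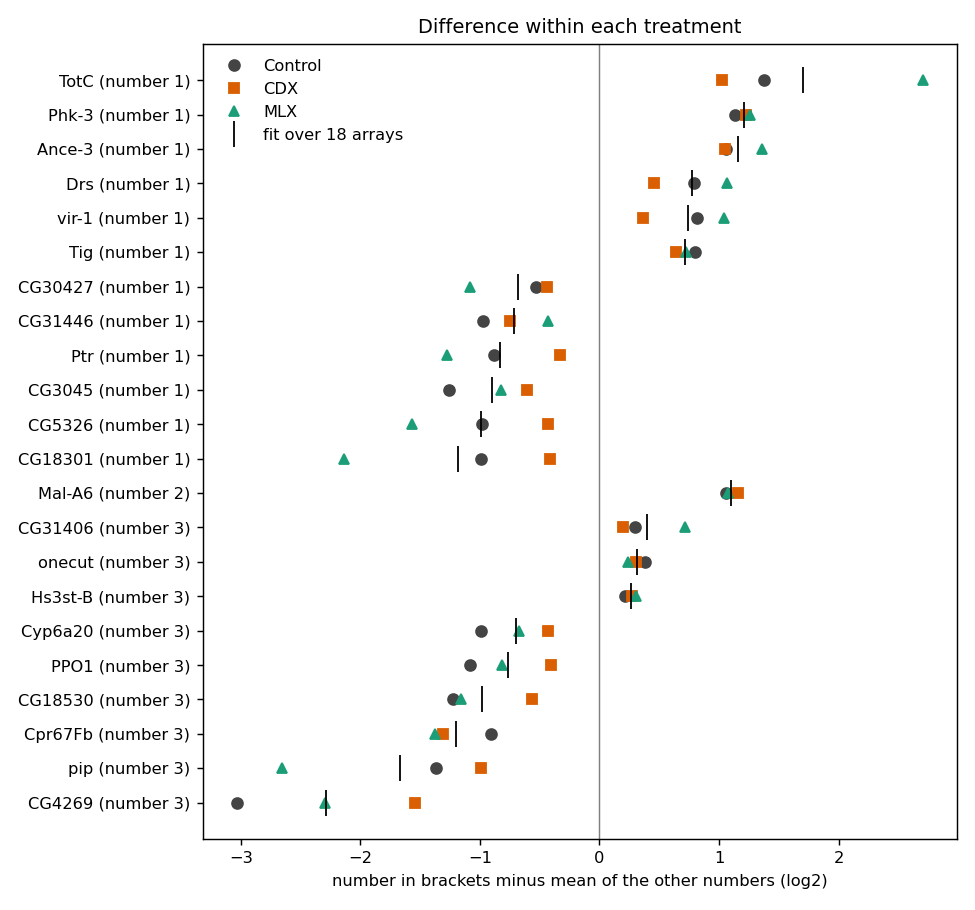
For each of the 22 named genes past the threshold, the number in brackets minus the mean of the other numbers (x axis, log2) in Control, CDX and MLX males (symbols) and in the fit over 18 arrays (bars). Within each gene all symbols lie on 1 side of 0, and Mal-A6 (1.05, 1.16 and 1.08) and Phk-3 (1.14, 1.23 and 1.26) vary least between treatments in relation to their size.

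The lists of digestion, cuticle and cytochrome P450 genes each held 1 called gene. Mal-A6, a gut maltase that splits disaccharides, ranged from 11.02 to 11.97 (median 11.54) in population 1, from 12.17 to 12.57 (12.40) in population 2 and from 10.63 to 12.06 (10.81) in population 3. Every array of population 2 lay above every array of the others. The excess was 1.10, and similar in Control (1.05), CDX (1.16) and MLX males (1.08). The F test over the numbers in limma gave an adjusted p of 0.0334. No pairwise comparison in limma passed the threshold (adjusted p = 0.334 for 2 minus 1, 0.58 for 3 minus 1 and 0.0839 for 3 minus 2). Mal-A6 was the only called gene among 48 of digestion in the F test, of which 40 were higher in population 2 than in population 1, with a median of 0.14, beside 6550 of 11981 and 0.007 over all genes. Mal-A2, another maltase, had 10.20, 10.55 and 10.06 and Ugt35A1, a UDP-glycosyltransferase, 9.09, 9.45 and 9.02. Neither passed the threshold (adjusted p = 0.186 and 0.10), and they are named because their arrays of population 2, centred by treatment, did not overlap the others. Chosen in the same way for population 2 at the low end, CG14408 had 5.69, 5.49 and 5.66 and Ccdc114, close to the lowest signals, 4.28, 4.12 and 4.40 (adjusted p = 0.309 and 0.175).

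Cpr67Fb, a cuticle protein, was at 10.39 ± 0.32, 10.19 ± 0.36 and 9.09 ± 0.50 (SD, n = 6 arrays) in populations 1, 2 and 3 (population 3 minus the others -1.20, adjusted p = 0.0199). It was the single called gene of 69 of the cuticle, 46 of which were lower in population 3 than in population 1 with a median difference of -0.04. Cyp6a20, a cytochrome P450 linked to male aggression, stood at 9.16, 8.99 and 8.37 (population 3 minus the others -0.70, adjusted p = 0.0481), and of 84 measured P450 genes 40 were higher and 44 lower in population 3 than in population 1. Between populations 1 and 2, 56 of the 84 were higher in population 2 (median 0.06). Of the 87 probe sets of these genes 17 (19.5%) had an unadjusted p under 0.05 in the F test in limma, beside 9.26% over all genes. This share was not particular to P450 genes. Over the 23 gene lists it ran from 0% (yolk and eggshell among them) to 37.5% (ejaculatory duct and bulb), with 20.9% for seminal fluid proteins. slf, or schlaff, a cuticle lectin picked with its values known, had 11.18, 10.88 and 10.73 (adjusted p = 0.0249). CG18530 had 8.38, 7.94 and 7.17 (adjusted p = 0.0488), with population 2 spread from 6.85 to 8.97 over the ranges of both others.

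Further called genes had a number apart without belonging to a list used here, and of these nAChRbeta3 and NtR were picked with their values known. The nicotinic acetylcholine receptor subunit nAChRbeta3 was lowest in population 3, at 6.87 against 7.40 and 7.32 (adjusted p = 0.0319), as was NtR, a receptor of the same ligand-gated class, at 8.03 against 8.88 and 8.58 (adjusted p = 0.00282). onecut, a homeobox transcription factor of neurons on chromosome 4, was highest there, from 7.46 to 7.79, against 7.10 to 7.43 in population 1 and 7.28 to 7.49 in population 2 (excess 0.31, adjusted p = 0.0363). Hs3st-B, which adds sulfate to heparan sulfate chains, was likewise highest in population 3 at 6.27 against 6.03 and 5.98 (adjusted p = 0.0449), and its arrays, from 6.15 to 6.41, lay above all others.

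The sulfotransferase gene pip, or pipe, known for patterning the egg, was much lower in population 3. A probe set read 8.27 ± 0.58, 8.10 ± 0.31 and 6.51 ± 0.63 (SD, n = 6 arrays) in populations 1, 2 and 3, with a difference of population 3 from the others of -1.67 (adjusted p = 0.00968), which was -2.65 in MLX males and -0.99 in CDX males. pip is a gene with many alternative transcripts, and its other called probe set had 5.38, 5.06 and 4.78, whereas 8 further probe sets of it had means between 3.25 and 4.03 and were not called. Ptr, a relative of the Hedgehog receptor patched, was lowest in population 1 at 8.43 against 9.12 and 9.40 (adjusted p = 0.00323), as was CG3045 at 6.44 against 7.25 and 7.42 (adjusted p = 0.00807). CG31446 was lowest there too, at 7.32 against 8.18 and 7.90 (adjusted p = 0.0488), and CG31406 was highest in population 3 at 9.32 against 9.04 and 8.79 (adjusted p = 0.0488).

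The called genes not described so far were taken up with their values known. Lowest in population 3 were lectin-24Db, CG44325, CG1092 and the hairpin RNA locus hpRNA:CR32207. CG32694 was highest in population 1 and lowest in population 3 in both of its called probe sets. CG3777, CG8630 and Tsp42El, a tetraspanin, were highest in population 1, and CG16820 was lowest there. CG3777 had 6.25 to 6.39 in population 1, 5.46 to 6.12 in population 2 and 5.52 to 5.86 in population 3, with no overlap between population 1 and the others. A probe set matched to no gene, 1 of the 3, had one of the widest spans, with 10.18, 8.49 and 7.61 in populations 1, 2 and 3 (adjusted p = 0.00018).

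Several genes are measured more than once on this array, which gave a second reading of the same RNA. Of the 43 called genes, 9 had other probe sets, 20 in all. In 17 of these 20 the number apart differed in the direction of the gene's leading probe set. Of the 20, 6 were called themselves (Ance-3, Karl, CG30427, CG32694, CG5326 and pip). Many of the remainder were near the lowest signal of the array, but not those of CG30427 (mean 9.13) and CG31406 (mean 7.76). The called probe sets were brighter than most, as 64.2% had a mean log2 expression of 8 or above, against 37.6% of all probe sets. By chromosome arm, 7 of the 43 genes (16.3%) were on X, which holds 15.6% of the genes tested, 10 on 2L, 12 on 2R, 5 on 3L, 8 on 3R and 1 on 4. The arms were not tested for enrichment.

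The groups of genes fixed for reproduction, energy and the senses had no called member, but some leaned to 1 side throughout. Of 33 genes of oxidative phosphorylation, 32 were lower in population 3 than in population 1, with a median difference of -0.06, and all 33 were lower than in population 2 (-0.09). Of 16 genes of glycolysis and glycogen 15 were lower than in population 1 (median -0.07). Testis and sperm genes leaned the other way, 46 of 49 being higher in population 3 than in population 1 (median 0.06), as did 33 of 43 seminal fluid genes (0.05) and 19 of 23 genes of small RNA and transposon control (0.09). Over all genes 6789 of 11981 were higher and the median was 0.015. Genes of a list share arrays, so that a common shift of a few arrays moves them together. Yolk and eggshell genes were higher in population 2 than in population 1 in 17 of 20 (median 0.31), with 3 of the 6 high arrays in population 2. No gene was called either in the lists of the female germline, the ejaculatory duct and bulb, muscle, phototransduction, odorant binding, glutathione and UDP conjugation, fat body, dosage compensation, the clock and insulin signalling, whose median differences of 3 minus 1 lay between -0.05 (fat body) and 0.06 (dosage compensation). Of 26 genes of pigmentation and tanning PPO1 alone was called, and 16 were lower in population 3 than in population 1. Of the 7 Y-linked genes measured none was called and all were higher in population 2 than in population 1, by a median of 0.05.

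The size of the differences was uneven between treatments. Among the 53 probe sets the number apart differed least in CDX males in 41 (77.4%), against 40.1% of the 8204 probe sets with the same sign in all treatments, and most in MLX males in 30 (56.6%, against 42.3%). A test of whether the difference by number depends on the treatment called 55 of 18769 probe sets (0.293%), and its p was under 0.05 without adjustment for 2715. Its error is the spread between the 2 arrays of a population, so that any population that stands apart by itself can give a call. Of the 55, the population farthest from the sum of number and treatment effects was MLX population 1 in 16, CDX population 1 in 15 and CDX population 2 in 14. Both lists held 5 probe sets, 2 of CG5326, 1 of CG30427, 1 of CG18301 and 1 that matched several genes. For these 5 the sign was shared by all treatments and the size differed.

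A pair of genes of the male tract also had their lowest mean in MLX population 1. Sfp24Bb, a seminal fluid protein, had population means of 12.30 in MLX population 1, 13.38 in Control population 1 and 13.73 in CDX population 1, whereas populations 2 and 3 lay between 13.79 and 14.04 (adjusted p = 0.102 for the number and 0.00185 for the interaction, from limma). Ebp, a protein of the ejaculatory bulb, was at 14.08 in MLX population 1 and between 14.57 and 14.85 in the other 8 populations (adjusted p = 0.147 and 0.0319). Neither was called by number. The Acp genes of the accessory gland among the interaction calls, picked with their values known, deviated most in CDX population 2. There they lay below the sum of number and treatment effects, Acp53C14c by -0.35, Acp36DE by -0.25, Acp29AB by -0.28 and Acp76A by -0.46.

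Across all 18769 probe sets, populations of the same number were only weakly alike. When each population mean was taken as its deviation from the treatment mean, the Pearson correlation across probe sets, a description with no test since probe sets share arrays, averaged 0.12 over 9 pairs of the same number (from -0.14 to 0.38) and -0.06 over 18 pairs of different numbers (from -0.33 to 0.22). Deviations within a treatment sum to 0, so likeness within a number pushes the pairs of different numbers to negative values. The averages are therefore not separate results. The highest was between Control population 1 and MLX population 1. CDX population 1 correlated at -0.05 with Control population 1 and at -0.14 with MLX population 1. Population 3 was alike in all pairs, at 0.18, 0.24 and 0.14, and population 2 at 0.08, 0.08 and 0.16.

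**Figure D5:**
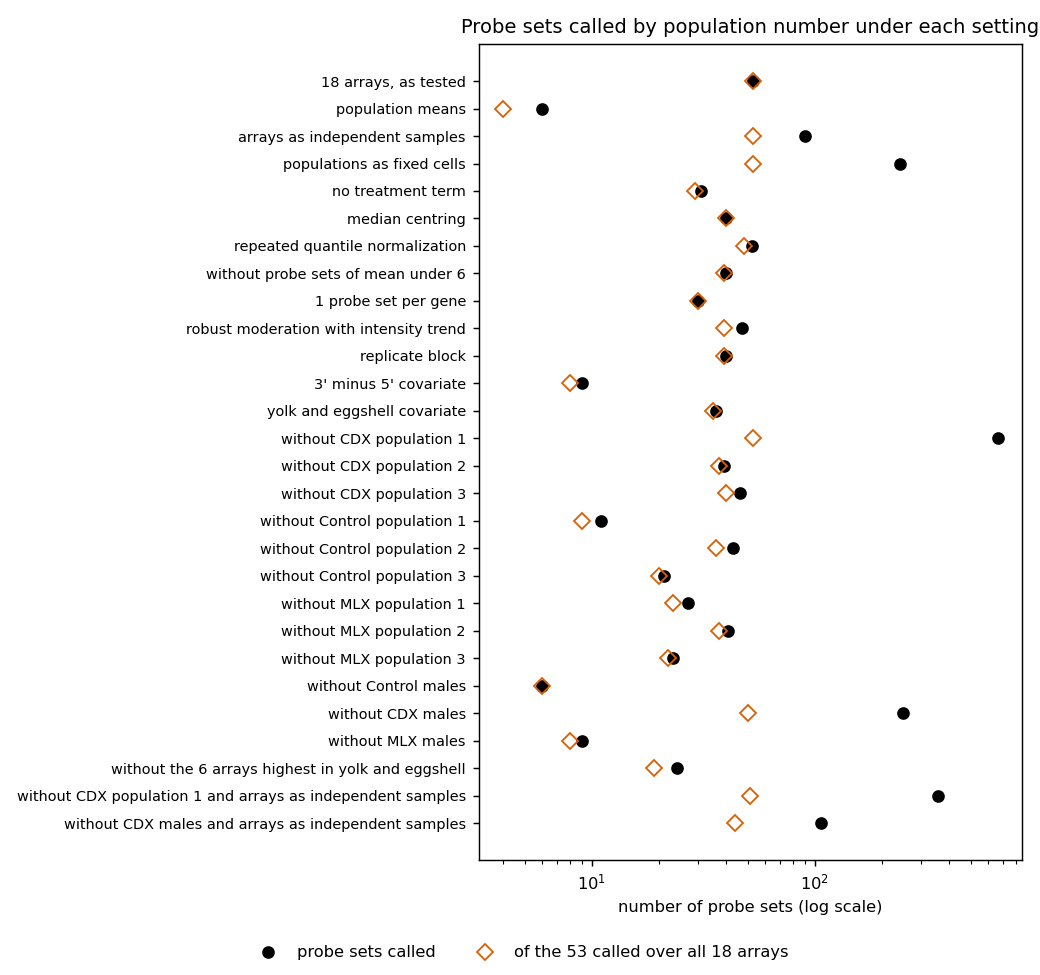
Number of probe sets called by population number at an adjusted p under 0.05 (x axis, log scale) under each setting (y axis), filled, and how many of these are among the 53 called over all 18 arrays, open. The filled points run from 6 to 662, and the open ones from 4 to 53.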

How the data were processed

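Whole males were hybridised to 18 Affymetrix GeneChip Drosophila Genome 2.0 arrays. The authors made the deposited log2 expression values by RMA in the package affy (no version is listed), and the values were read as deposited. RMA normalizes quantiles over all arrays, which removes shifts common to a whole array. Gene names came from the platform annotation updated through RefSeq (Release 6 plus ISO1 MT), by which 13646 probe sets matched 1 gene (11981 genes), 402 several and 4721 none, while 13534 were placed on a chromosome arm. The files name no genome build, and no coordinates are given. All 18 columns belong to a labelled sample, and 0 others were left out.

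The fit in limma 3.58.1 (R 4.3.3) held population number and treatment as fixed factors and the 9 populations as a random block (duplicateCorrelation), followed by eBayes (13 residual and 4.57 prior degrees of freedom), a moderated F test over the numbers and the 3 pairwise differences, each with Benjamini-Hochberg adjustment. The interaction was fitted on 9 cells with 4 contrasts. By the methods the 2 arrays of a population are independent groups of males, and each number has 3 labelled populations. The CDX groups among these are crosses of a single generation, and the fit took all 9 as separate populations. Genes named were, for each number apart and direction, up to 6 called genes by size, with patterns of fewer than 3 filled at an unadjusted p under 0.01 among those with arrays that do not overlap, and up to 3 examples of each of 23 gene lists. Any others are said to be picked with values known. The members and lists were chosen with earlier results of these data known. Alternatives were population means, independent arrays, fixed cells, no treatment term, 2 further scalings, a filter at a mean of 6, 1 probe set per gene, robust moderation, the array number as a block, covariates, a joint adjustment and leaving out populations or treatments. Figures used Python 3.11.15 with numpy 2.4.6, pandas 2.3.3 and matplotlib 3.10.9.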

Additional observations from a re-analysis of the deposited data

Results flagged for a closer look

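Of 171 groups of 6 arrays examined (57 probe sets by 3 numbers), 5 held an array far from the other 5, where about 1 in 20 groups would by chance. Cyp6a20 was at 9.70 on Control population 1 array 2, with the others of population 1 between 8.95 and 9.14. TotC was at 10.27 on Control population 2 array 1, against 8.16 to 8.94, which made the overlap with population 1. NtR was at 8.37 on Control population 2 array 2, against 8.57 to 8.68. The hairpin locus hpRNA:CR32207 was at 5.98 on MLX population 3 array 2, against 5.52 to 5.63, and a probe set matched to no gene at 10.05 on CDX population 3 array 1, against 9.12 to 9.42.

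In the limma interaction test 5 called probe sets passed the threshold, and in all 5 MLX population 1 deviated most. Each number within a treatment is 1 population, so dependence on treatment cannot be told apart from a single population standing apart. The adjusted p was 0.000326 for 1 probe set of CG30427, 0.0116 for CG18301, 0.0253 and 0.00851 for the called probe sets of CG5326, and 0.0271 for a probe set matched to several genes. In each the deficit of population 1 was largest in MLX and smallest in CDX males.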

How the results depend on the processing

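The counts depended strongly on the unit of replication and on single populations. The 53 probe sets kept their direction under every setting that tested them. Of them 49 were tested without low signals and 43 with 1 probe set per gene. The settings share arrays and the 53 had the same sign in each treatment, so their direction is no separate support. Counts are given in the order F test, 2 minus 1, 3 minus 1 and 3 minus 2, and the count with the same sign in all treatments equalled that of the F test unless stated. Over all arrays they were 53, 7, 74 and 3. Population means gave 6, 0, 10 and 3, independent arrays 90, 19, 111 and 11, and fixed cells 242 (224 with the same sign), 65, 203 and 126. Without the treatment term there were 31, 1, 53 and 0, and with 1 probe set per gene 30, 3, 62 and 1. The 3' minus 5' covariate gave 9, 6, 9 and 2. A joint adjustment gave 12, 45 and 9 in the pairwise comparisons. Without Control males there were 6, 4, 10 and 0, without MLX males 9, 0, 9 and 0, and without CDX males 250, 23, 794 and 5, at a correlation of -0.12 between arrays of a population. Chosen after seeing the data were leaving out the 6 arrays highest in yolk and eggshell signal (24, 7, 48 and 0), independent arrays without CDX males (107, 20, 273 and 3) and independent arrays without CDX population 1 (359, of which 358 had the same sign, 45, 902 and 32). Leaving out 1 population at a time gave 11 to 662 in the F test (11 to 659 with the same sign), 0 to 78, 19 to 1366 and 0 to 86, with the highest value of each without CDX population 1. The interaction rose from 55 to 114 without probe sets of a mean under 6 and to 206 with robust moderation. With the array number as a replicate block there were 40, 7, 63 and 4 calls and 33 for the interaction. No source says that the numbers 1 and 2 of the arrays mark anything shared, and the differences of array 1 minus array 2 correlated between populations at a mean of -0.01 (from -0.32 to 0.18 over 36 pairs), although array 1 had the higher yolk and eggshell mean in all 3 CDX populations. The cause of these changes was not tested. Precision is limited by 3 populations per number, and a false positive count cannot be read from these data.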
